A study of Mus musculus with 6 samples.

Results

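The BCL2 family genes described here are Bcl2, Bcl2l1, Mcl1, Bax, Bak1, Bad, Bid, Bbc3 and Bcl2l11, followed in the RNA of mouse pancreatic islets. They were taken by symbol: each probe set, a group of short oligonucleotides read together as 1 value, was kept where the array's annotation names 1 of these genes alone. This gave 28 of the 45037 probe sets tested, and they cover 8 of the 9 genes. Bax was not analysed here. Islets came from Pdx1Cre;PPARbetafl/fl mice, labelled knockout (3 mice), and from PPARbetafl/fl littermates without Cre, labelled control (3 mice), all 8 weeks old and of mixed SV 129/C57BL/6 background, with 1 Affymetrix array per mouse. Both groups carry the floxed alleles of Ppard, the gene of the fatty-acid-sensing nuclear receptor PPAR-beta, and only the first carries the Cre recombinase, driven by the Pdx1 promoter of the whole developing pancreas. Without Cre-positive mice with intact Ppard, the deletion and the Cre transgene cannot be told apart. Per the labels the cell type is the pancreatic beta-cell, but RNA was taken from whole islets.

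BCL2 family proteins set the threshold for apoptosis at the outer mitochondrial membrane. Anti-apoptotic members (BCL2, BCL-XL from Bcl2l1, MCL1) hold back the effectors BAX and BAK, which form pores that release cytochrome c and so start the caspases. BH3-only proteins (BAD, BID, PUMA from Bbc3, BIM from Bcl2l11) sense stress and either block the anti-apoptotic members or activate the effectors. In beta cells these proteins are known for their part in the loss of cells under cytokines, ER stress and high glucose. Several of them are controlled after translation, by cleavage, phosphorylation or turnover, which an RNA array does not see.

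None of the 28 probe sets passed the test. The most separated groups, none of them past the test, were those of Bcl2l1 and Bid, with higher values in the knockout-labelled arrays, and of Bcl2l11, with lower ones. On their brightest probe sets Bcl2l1 differed by 0.49 ± 0.15 (SE), Bid by 0.49 ± 0.17 and Bcl2l11 by -0.41 ± 0.12, on the log2 scale, knockout-labelled minus control arrays (n = 3 each). Mcl1 differed by no more than 0.13 on any of its 6 probe sets. Groups overlapped on the brightest probe sets of Bcl2, Bak1, Bad and Bbc3, where the differences were 0.05, 0.03, 0.07 and -0.26.

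The promoters shown are those of Bcl2l1 and Bcl2l11, the genes with the most probe sets whose groups do not overlap, and of Bbc3, because BIM and PUMA are both known targets of the FOXO transcription factors. They are RefSeq sequences of build GRCm38.p6, 250 bases before an annotated start, 5′ to 3′, and capitals mark a match to a FOXO motif. Bcl2l1 has 3 such windows, Bcl2l11 has 2 and Bbc3 has 3, and 1 of each gene is printed. For Bcl2l11 and Bbc3 the printed window is the one with a FOXO match, and their other windows had none.
Bcl2l11 promoter, chr2:128125788-128126037, plus strand: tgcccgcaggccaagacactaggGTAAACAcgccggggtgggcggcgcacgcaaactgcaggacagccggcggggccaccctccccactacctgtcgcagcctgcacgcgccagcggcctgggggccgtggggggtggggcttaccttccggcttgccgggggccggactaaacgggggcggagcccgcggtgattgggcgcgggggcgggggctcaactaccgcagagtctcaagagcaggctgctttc
Bbc3 promoter, chr7:16310011-16310260, plus strand: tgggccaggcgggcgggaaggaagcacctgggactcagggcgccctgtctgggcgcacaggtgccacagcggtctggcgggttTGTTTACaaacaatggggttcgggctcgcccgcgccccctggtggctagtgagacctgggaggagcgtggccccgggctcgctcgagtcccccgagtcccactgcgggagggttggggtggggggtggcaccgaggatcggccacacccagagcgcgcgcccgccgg
Bcl2l1 promoter, chr2:152831729-152831978, minus strand: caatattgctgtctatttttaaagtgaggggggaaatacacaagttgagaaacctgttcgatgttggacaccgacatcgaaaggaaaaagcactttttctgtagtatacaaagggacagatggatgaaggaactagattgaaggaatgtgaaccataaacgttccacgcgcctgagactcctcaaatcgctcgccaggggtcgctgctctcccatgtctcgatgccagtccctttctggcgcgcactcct
The FOXO motif was searched as TGTTTAC on both strands, and the Bcl2l11 match begins at position -227 and the Bbc3 match at -167 from the annotated start. A match stood in 2 of the 15 windows of the 9 genes and in 3.17% of all 32851 windows in the table. The MYC motif CACGTG also stood in 2 of the 15, in windows of Bax and Bbc3, and in 6.02% of all. Matches to the STAT5 motif TTCNNNGAA (7.02% of all windows), the CREB motif TGACGTCA (1.55%), the CHOP motif TGATGNAA (3.45%) and the direct repeat bound by PPARs (AGGNCA given in tandem with 1 base between, 0.338%) stood in 0 of the 15. None of these motifs overlapped another in the windows printed. Some windows of 1 gene overlap each other, a match describes letters and not a bound site, and no match says only that the letters are not in these windows.

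Neither probe set of Ppard, the gene the deletion targets, had a lower mean in the knockout-labelled arrays. Ppard, on the brighter of its 2 probe sets, had log2 values of 8.01, 8.20 and 7.70 in the knockout-labelled arrays and 7.75, 7.56 and 7.12 in the control arrays, a difference of 0.49 ± 0.20 (SE, adjusted p = 0.377). On the dimmer one the groups did not overlap and the knockout-labelled arrays were higher, with 5.97, 5.84 and 5.73 against 5.57, 5.47 and 5.47 in the control arrays (0.35 ± 0.11, adjusted p = 0.255). Which exon was deleted is not given in the labels, and probes that bind elsewhere in the transcript cannot check a deletion, so the genotypes are those of the labels. Median log2 values lay between 5.39 and 5.49 in the 6 arrays. Digestive-enzyme RNA of acinar cells, which cling to islets during isolation, differed between arrays: the mean of 25 acinar markers was 8.30, 5.56 and 5.66 in knockout-labelled arrays 1 to 3 and 6.56, 10.75 and 10.92 in control arrays 1 to 3. Of these markers 23 had lower means in the knockout-labelled arrays and 0 passed, with overlapping groups. The 20 immune markers had means of 6.06 to 6.38 in the knockout-labelled arrays and 5.79 to 5.94 in the control arrays, 16 of them higher and 1 called. Means were lower for all 6 alpha cell markers (0 called) and for all 7 markers of delta, PP and epsilon cells (2 called). The alpha cell markers had array means of 8.11 to 8.25 in the knockout-labelled arrays and 8.62 to 8.78 in the control arrays. For delta, PP and epsilon cells they were 9.87 to 9.93 and 10.42 to 10.63, so the array means of both lists separated the groups. The beta cell markers, 12 in all, had array means of 11.18 to 11.39 in the knockout-labelled arrays and 11.31 to 11.66 in the control arrays, with 1 called lower. Array means overlapped for 10 duct markers (7.77 to 7.84 against 7.56 to 8.02), of which 3 had higher means and 1 was called higher. They also overlapped for 12 endothelial markers (10 higher, 0 called) and for 13 markers of fibroblasts, stellate cells and smooth muscle (7 higher, 0 called). RMA values have no zero, so no marker can be listed as absent. In bulk islet RNA, fewer cells of a type and less RNA per cell cannot be told apart, and the part of these cell types in the differences below was not tested except for acinar RNA, for which values follow.

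Among the anti-apoptotic genes, Bcl2l1 encodes BCL-XL, which keeps BAX and BAK inactive. Its brightest probe set, 1426191_a_at, had log2 values of 8.71, 8.84 and 8.68 in the knockout-labelled arrays and 8.07, 8.17 and 8.52 in the control arrays. The groups did not overlap, and control array 3 lay closest to the other group. The difference of 0.49 (95% interval 0.15 to 0.83, 1.40-fold) had an unadjusted p of 0.0122 and an adjusted p of 0.228. The probe set 1420888_at was tighter, at 8.00, 8.07 and 8.02 in the knockout-labelled arrays and 7.80, 7.80 and 7.75 in the control arrays, which is 8.03 ± 0.03 and 7.78 ± 0.03 (SD, n = 3 each). That difference of 0.25 ± 0.10 (SE) had an adjusted p of 0.349. On 1420887_a_at the values were 8.61, 8.80 and 8.40 in the knockout-labelled arrays and 8.30, 8.33 and 8.30 in the control arrays (0.29 ± 0.13, adjusted p = 0.405). All 3 brighter probe sets thus gave higher values in every knockout-labelled array than in any control array. The fourth, 1426050_at, lay at percentile 19.1 of all probe sets, overlapped and differed by -0.14 ± 0.17.

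**Figure D1:**
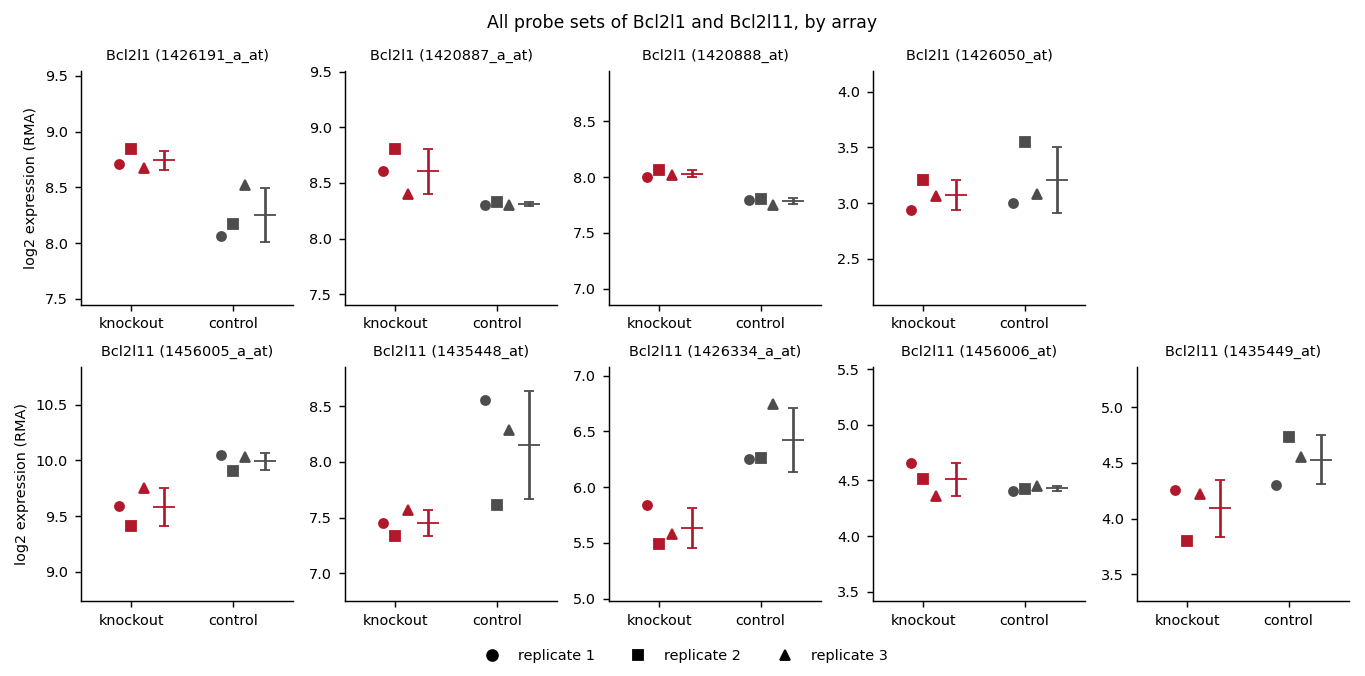
Log2 RMA expression (vertical axes, each spanning 2.1 log2 units) of the 4 probe sets of Bcl2l1 (top) and the 5 of Bcl2l11 (bottom) in knockout-labelled arrays (red, left) and control arrays (grey, right). Symbols are arrays and bars are mean ± SD (n = 3). The 3 brighter Bcl2l1 probe sets are higher in every knockout-labelled array and 4 of the 5 Bcl2l11 probe sets are lower in every knockout-labelled array, and none passed the test.

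Mcl1 encodes a short-lived anti-apoptotic protein that many cells need to survive. Its brightest probe set, 1437527_x_at, at percentile 98.1, had log2 values of 11.65, 11.58 and 11.54 in the knockout-labelled arrays and 11.56, 11.48 and 11.37 in the control arrays. These overlapped, and the difference of 0.12 ± 0.11 (SE) had a 95% interval of -0.13 to 0.37 (adjusted p = 0.701). All 6 Mcl1 probe sets had slightly higher means in the knockout-labelled arrays, by 0.02 to 0.13, and 2 of them did not overlap between groups, 1456243_x_at and 1456381_x_at. The lowest of these differences, that of 1448503_at, turned to -0.02 after a second quantile normalization. The 95% intervals of the 6 ran at most to 0.37, so a larger rise lay outside all 6 intervals. The end of an interval is not a limit of detection, and smaller rises are not excluded. Of the 6 names, 3 end in _x_at, the maker's mark for probes that may also bind other transcripts.

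Bcl2 is the founding member of the family and protects cells at the mitochondria and the ER. On its brightest probe set, 1422938_at, the log2 values were 8.18, 7.64 and 7.68 in the knockout-labelled arrays and 7.59, 7.58 and 8.17 in the control arrays. Knockout-labelled array 1 and control array 3 were high and the other 4 arrays lay close together, so the groups overlapped. The difference was 0.05 ± 0.22 (SE), with a 95% interval of -0.47 to 0.57 (adjusted p = 0.954). Its sign changed to -0.12 without knockout-labelled array 1 and to -0.05 without control array 1 or without control array 2, and it was 0.36 with the acinar level in the fit. On 1437122_at, near the middle of the range, the groups did not overlap: 5.24, 5.34 and 5.10 in the knockout-labelled arrays and 5.45, 5.39 and 5.64 in the control arrays, a difference of -0.27 ± 0.12 (adjusted p = 0.421). The other 3 Bcl2 probe sets overlapped and differed by -0.29, -0.10 and 0.34, the last at percentile 4.31, among the dimmest on the array.

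**Figure D2:**
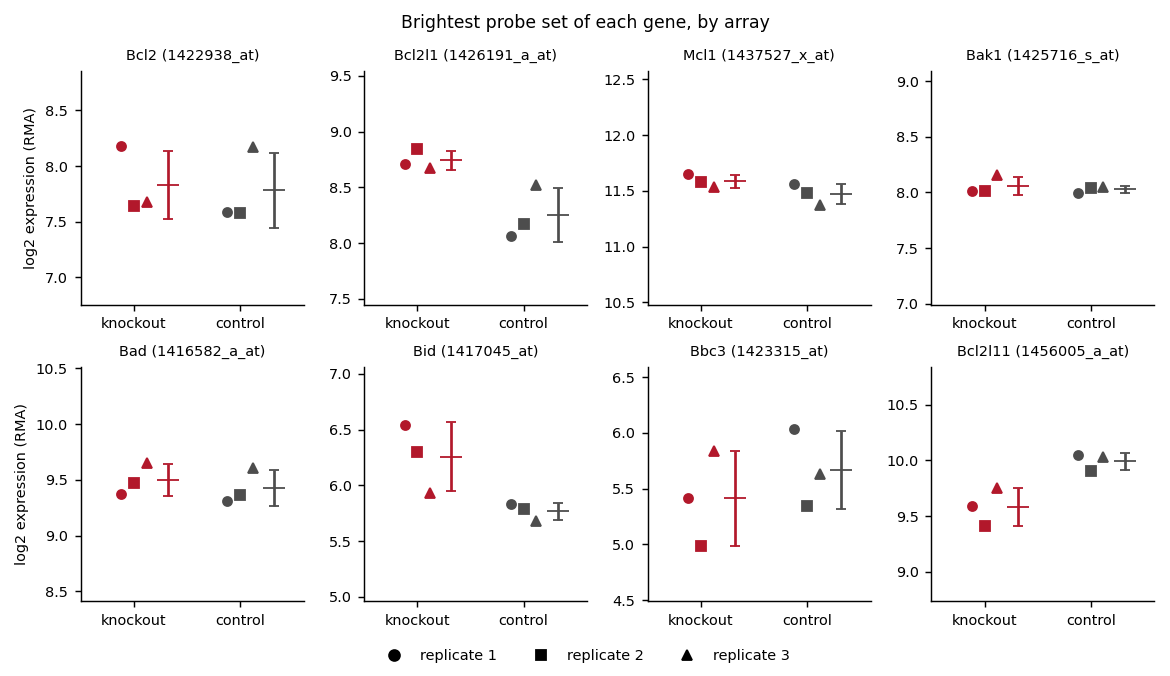
Log2 RMA expression (vertical axes, each spanning 2.1 log2 units) of the brightest probe set of each of the 8 genes in knockout-labelled arrays (red, left) and control arrays (grey, right). Symbols are arrays and bars are mean ± SD (n = 3). Bcl2l1, Bid and Bcl2l11 are the 3 genes whose groups do not overlap, while Bcl2 has 1 high array in each group.

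Of the effectors, only Bak1 was analysed here. BAK sits in the outer mitochondrial membrane and forms pores once activated. Its brighter probe set, 1425716_s_at, had log2 values of 8.01, 8.01 and 8.15 in the knockout-labelled arrays and 7.99, 8.04 and 8.05 in the control arrays, a difference of 0.03 ± 0.10 (SE, 95% interval -0.21 to 0.27, adjusted p = 0.935). The name ending _s_at marks probes shared by several transcripts. The other probe set, 1418991_at, had 6.96, 7.19 and 7.47 in the knockout-labelled arrays and 7.51, 7.55 and 7.52 in the control arrays. Here the groups did not overlap, by a narrow margin at knockout-labelled array 3, and the difference was -0.32 ± 0.15 (adjusted p = 0.425). The 2 probe sets therefore disagree on whether the Bak1 groups separate.

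Among the BH3-only genes, Bcl2l11 encodes BIM, which binds all anti-apoptotic members and can activate BAX and BAK. Its brightest probe set, 1456005_a_at, had log2 values of 9.59, 9.41 and 9.75 in the knockout-labelled arrays and 10.05, 9.90 and 10.03 in the control arrays. The difference was -0.41 ± 0.12 (SE, 95% interval -0.70 to -0.11), a ratio of 0.753, with an unadjusted p of 0.0134 and an adjusted p of 0.238. The widest gap was on 1426334_a_at, with 5.84, 5.49 and 5.58 in the knockout-labelled arrays and 6.25, 6.26 and 6.75 in the control arrays, or 5.64 ± 0.18 and 6.42 ± 0.29 (SD, n = 3 each). That difference of -0.79 ± 0.17 (SE) is a ratio of 0.580, and its adjusted p of 0.119 was the lowest of the 28. On 1435448_at the values were 7.45, 7.34 and 7.56 in the knockout-labelled arrays and 8.55, 7.62 and 8.28 in the control arrays (-0.70 ± 0.24, adjusted p = 0.288). Control array 2 lay just above the knockout-labelled arrays there, and without it the difference was -0.97. Without control array 1, the highest there, it was -0.50. A dimmer probe set, 1435449_at, had 4.26, 3.80 and 4.22 in the knockout-labelled arrays and 4.30, 4.74 and 4.55 in the control arrays (-0.44 ± 0.17, adjusted p = 0.359). The fifth, 1456006_at, overlapped and differed by 0.08 ± 0.11. Thus 4 of 5 Bcl2l11 probe sets were lower in every knockout-labelled array than in any control array. These probe sets measure RNA of 1 gene in the same 6 extracts.

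Bid encodes a protein that caspase 8 cleaves to link death receptors to mitochondria. Its brightest probe set, 1417045_at, had log2 values of 6.54, 6.30 and 5.93 in the knockout-labelled arrays and 5.83, 5.79 and 5.68 in the control arrays. The groups did not overlap, and the spread was wider in the knockout-labelled arrays (SD 0.31) than in the control arrays (SD 0.08). The difference was 0.49 ± 0.17 (SE, 95% interval 0.09 to 0.89, 1.40-fold, adjusted p = 0.296). On 1448560_at the values were 5.40, 5.08 and 4.94 in the knockout-labelled arrays and 4.76, 4.50 and 5.10 in the control arrays, which overlapped (0.35 ± 0.19, adjusted p = 0.507). The third Bid probe set, at percentile 7.17, differed by -0.03 ± 0.21 and by 0.02 after median centring.

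Bad encodes a BH3-only protein held inactive by phosphorylation in response to growth factors and glucose. Its brighter probe set, 1416582_a_at, had log2 values of 9.37, 9.48 and 9.65 in the knockout-labelled arrays and 9.31, 9.36 and 9.61 in the control arrays, a difference of 0.07 ± 0.13 (SE, 95% interval -0.24 to 0.39, adjusted p = 0.871). The second probe set differed by 0.08 ± 0.10. Both pairs of groups overlapped. Bbc3 encodes PUMA, which p53 and ER stress induce. Its only probe set, 1423315_at, near the middle of the range, had 5.42, 4.99 and 5.84 in the knockout-labelled arrays and 6.04, 5.34 and 5.63 in the control arrays, a difference of -0.26 ± 0.26 (SE, 95% interval -0.87 to 0.36, adjusted p = 0.738). It was -0.04 without knockout-labelled array 2, -0.07 without control array 1, -0.47 without knockout-labelled array 3 and -0.42 without control array 2, and -0.62 against control array 1 alone and -0.51 with the acinar level in the fit. The spread between arrays of 1 group was the widest among the brightest probe sets, with SDs of 0.43 and 0.35, so the Bbc3 difference is the least precisely estimated of the 8.

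**Figure D3:**
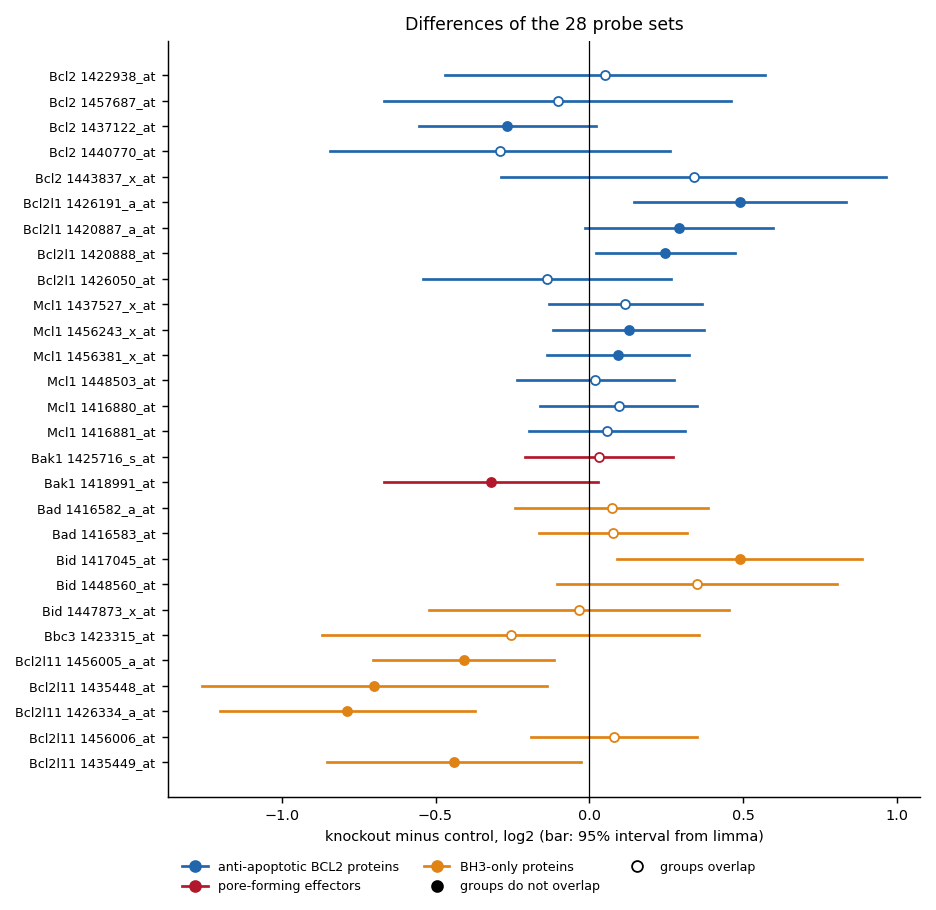
Difference (knockout-labelled minus control arrays, log2) of each of the 28 probe sets with its 95% interval from limma, by gene and coloured by role. Filled points mark groups that do not overlap. The intervals that leave out 0 belong to Bcl2l1 (2 probe sets), Bid (1) and Bcl2l11 (4), and none of the 28 passed after adjustment over all probe sets.

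As a group, 0 of the 28 probe sets were called at an adjusted p under 0.05 by limma, against 0.897% of all probe sets tested. At an unadjusted p under 0.05 there were 7 of 28, against 12.9% of all: 4 of Bcl2l11, 2 of Bcl2l1 and 1 of Bid. Groups did not overlap on 12 of 28 probe sets, against 19.0% of all. Of the 12, 6 were higher (10.1% of all probe sets were) and 6 lower (8.85% of all). An unadjusted p under 0.01 with at least a 1.5-fold difference was met by 1 of 28, the Bcl2l11 probe set 1426334_a_at, against 3.25% of all. Taking 1 probe set per gene, the brightest, 3 of 8 did not overlap, against 21.2% of genes, and 3 of 8 had an unadjusted p under 0.05, against 14.0%. The count of 12 dropped to 7 after a second quantile normalization, where 19.3% of all probe sets did not overlap. Of the 28, 20 lay above the median level of all probe sets, where both background shares were higher. There 10 of 20 did not overlap, against 25.6% of all such probe sets. An unadjusted p under 0.05 was met by 7 of these 20, against 19%. The 12 belong to Bcl2l11 (4), Bcl2l1 (3), Mcl1 (2), Bid, Bcl2 and Bak1 (1 each), and probe sets of 1 gene are not independent. The count of 7 was 4 without knockout-labelled array 1, 3 without knockout-labelled array 2 and 4 without control array 3, against 9.47%, 9.76% and 9.99% of all probe sets, and 4 against control array 1 alone (12.7%). By role the median difference was 0.09 over the 15 anti-apoptotic probe sets and -0.03 over the 11 BH3-only ones, against -0.02 over all probe sets. Of the 15, 6 are of Mcl1, and the value of -0.03 is that of a Bid probe set at percentile 7.17. With 1 probe set per gene the medians were 0.12 over 3 anti-apoptotic genes and -0.09 over 4 BH3-only genes, against 0.0020 over all genes.

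The 3 genes were set beside the acinar level of each array. Control array 1, with little acinar RNA, had the lowest value on the brightest Bcl2l1 probe set (8.07) and the highest on that of Bcl2l11 (10.05). On the brightest Bid probe set the same array was the highest of the controls (5.83) and the nearest to the knockout-labelled arrays. With the acinar level as a covariate the differences were 0.61 for Bcl2l1, -0.44 for Bcl2l11 and 0.57 for Bid on these probe sets. Against control array 1 alone, leaving out control arrays 2 and 3, they were 0.68, -0.46 and 0.42 in the same order of genes. None passed in either fit (adjusted p between 0.212 and 0.572). On the Bcl2l11 probe set 1426334_a_at, with the lowest adjusted p among the listed genes, the difference moved from -0.79 to -0.56 with the covariate. The dim Bcl2l11 probe set 1435449_at moved to -0.19 with the covariate, and 1435448_at moved to -1.10 against control array 1 alone.

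**Figure D4:**
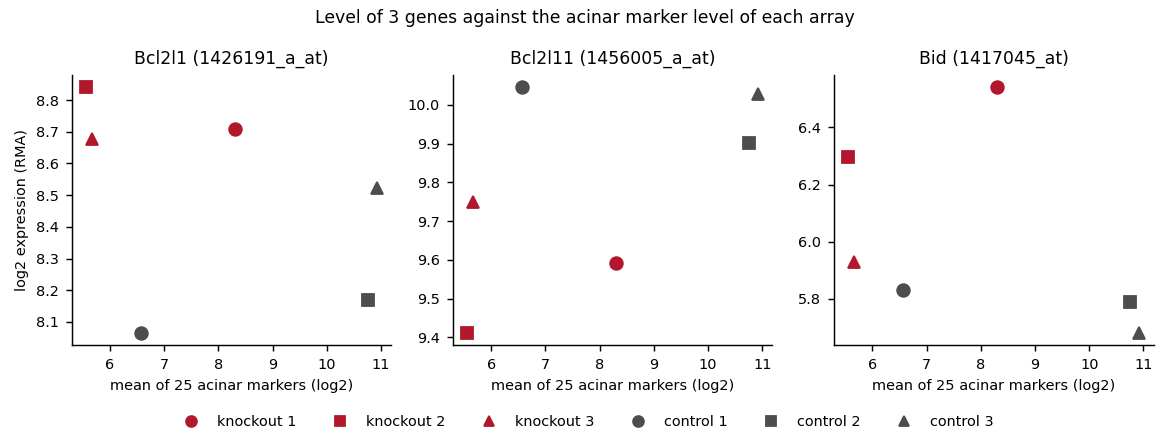
Log2 RMA expression of the brightest probe sets of Bcl2l1, Bcl2l11 and Bid (vertical axes) against the mean log2 level of 25 acinar markers (horizontal axes) in knockout-labelled arrays (red) and control arrays (grey). Each point is 1 array. Control array 1, at an acinar level of 6.56, lies nearer to the knockout-labelled arrays on the horizontal axes than the other control arrays do. On the vertical axes it is the lowest array for Bcl2l1 and the highest for Bcl2l11. For Bid it is the highest control array and the nearest to the knockout-labelled arrays.

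The wider apoptosis machinery was followed in 7 lists, 137 genes in all, each by its brightest probe set. Of these, 1 was called higher and 0 lower, against 0.852% and 0.247% of all genes. At an unadjusted p under 0.05 there were 23 of 137, against 14.0% of all genes, a share near that background. Over all 137 the median difference was 0.08, against 0.0020 over all genes, and 92 had higher means, against 50.4% of all genes. Of the 137, 116 lay above the median level of all probe sets. The share of higher means among all genes of like level was not computed, so the 92 is a description only.

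The called gene was Cradd, also known as RAIDD, an adaptor that brings caspase 2 to death signalling complexes. It had log2 values of 8.13, 8.11 and 8.41 in the knockout-labelled arrays and 7.25, 7.19 and 7.10 in the control arrays. The groups were far apart, and the difference of 1.04 ± 0.12 (SE, 2.06-fold) had an adjusted p of 0.0167. The size held at 0.94 to 1.09 under all 13 alternatives, while the call was lost without knockout-labelled array 1, 2 or 3 (adjusted p = 0.0684, 0.0637 and 0.0515) and without control array 2 or 3 (0.0605 and 0.093). It was also lost when acinar level was a covariate (0.95, adjusted p = 0.139), when control array 1 stood alone (0.97, adjusted p = 0.174) and with replicate number as a block (adjusted p = 0.072).

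Death receptors, their ligands and adaptors, to which Cradd belongs, had higher means in 19 of 22 genes, with a median difference of 0.21, 1 called and 21 not. Mlkl, the executioner of necroptosis, a death route apart from the BCL2 family, was chosen after its values were seen and differed by 0.81 ± 0.14 (SE, adjusted p = 0.0633), with log2 values of 7.37, 7.53 and 7.07 in the knockout-labelled arrays and 6.57, 6.42 and 6.54 in the control arrays. Mlkl and others of this list are active in immune cells, and 16 of 20 immune markers had higher means in the same arrays, whose part in these values was not tested. Genes of ER stress death signalling had higher means in 14 of 17, a median difference of 0.21 and 0 called. Sdf2l1, an ER chaperone partner, differed by 0.50 ± 0.12 (adjusted p = 0.131), while Chac1, a glutathione-degrading enzyme induced by ATF4, differed by -0.44 ± 0.10 (adjusted p = 0.144).

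Other BCL2 family genes were split, 7 of 14 with higher means, a median difference of -0.03 (0.02 after median centring) and 0 called. Bcl2l2, which encodes the anti-apoptotic BCL-W, had log2 values of 9.99, 10.20 and 9.95 in the knockout-labelled arrays and 9.67, 9.70 and 9.61 in the control arrays on its brightest probe set (0.38 ± 0.11, adjusted p = 0.225), and its 3 dimmer probe sets overlapped. Bnip3, a mitochondrial protein of hypoxia-induced mitophagy, had 11.04, 10.90 and 10.76 in the knockout-labelled arrays and 10.38, 10.38 and 10.20 in the control arrays (0.58 ± 0.12, adjusted p = 0.101).

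Downstream of the mitochondrial pore, the apoptosome, caspase and activator genes had higher means in 11 of 17, a median difference of 0.08 and 0 called; the median was -0.0059 with acinar level in the fit and -0.02 against control array 1 alone. Endog, a mitochondrial nuclease released in apoptosis, differed by 0.59 ± 0.11 (SE, adjusted p = 0.0696), with log2 values of 9.66, 9.80 and 9.65 in the knockout-labelled arrays and 9.03, 9.10 and 9.21 in the control arrays. Htra2, a mitochondrial protease that blocks inhibitors of apoptosis once released, differed by -0.49 ± 0.13 (adjusted p = 0.175), and its dimmer probe set differed by -0.03. The 10 inhibitor of apoptosis genes had a median difference of 0.07, 6 higher means and 0 called. Their median was 0.12 after median centring and 0.33 over those above the median level, and 0.03 and 0.10 without knockout-labelled array 2 or 3. Naip2, known as an inflammasome sensor, differed by 0.48 ± 0.13 (adjusted p = 0.185) and Birc5, the mitotic protein survivin, by -0.43 ± 0.17 (adjusted p = 0.361).

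**Figure D5:**
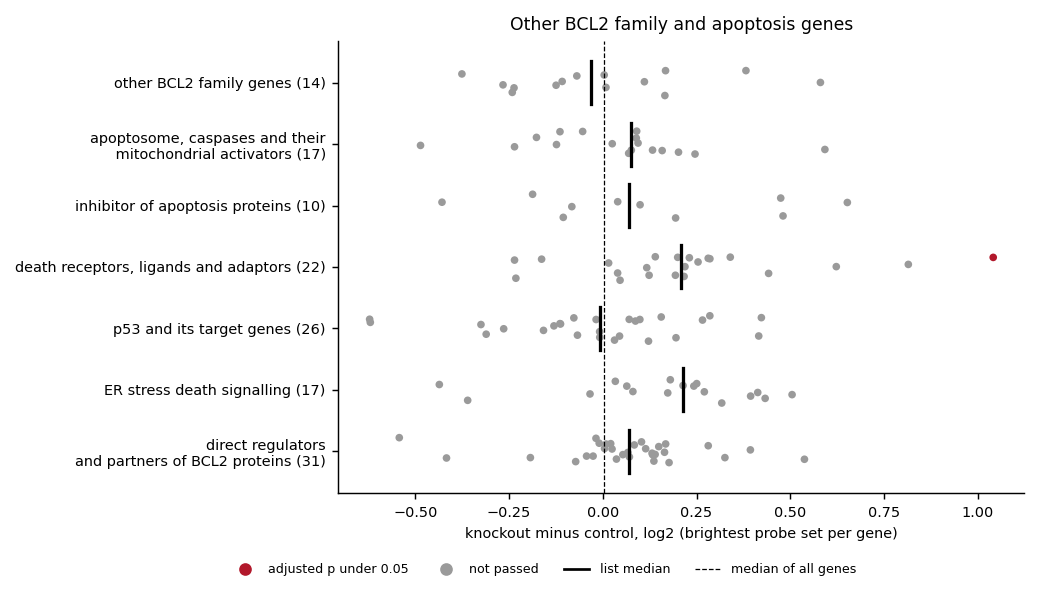
Difference (knockout-labelled minus control arrays, log2, brightest probe set per gene) of 137 genes in 7 apoptosis lists, with the number of genes of each list in brackets. Black bars are list medians, the dashed line is the median of all genes, and vertical scatter within a list has no meaning. Cradd, at 1.04, is the only point past adjusted p 0.05.

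Upstream, p53 and its target genes had higher means in 12 of 26, a median difference of -0.01 (0.04 after median centring) and 0 called. Trp53i11 differed by -0.62 ± 0.17 (SE, adjusted p = 0.193) and Sesn1, a stress-induced regulator of mTORC1, by -0.62 ± 0.20 (adjusted p = 0.254). Direct regulators and partners of BCL2 proteins had higher means in 23 of 31, a median difference of 0.07 and 0 called. The smallest p were those of Bcap29, an ER membrane protein (0.39 ± 0.11, adjusted p = 0.195), and Akt1, the kinase that phosphorylates BAD and FOXO proteins (0.54 ± 0.18, adjusted p = 0.271). Akt1 had log2 values of 8.94, 9.06 and 8.84 in the knockout-labelled arrays and 8.60, 8.04 and 8.58 in the control arrays, and 2 of its 4 probe sets separated the groups. The next 3 genes, regulators of Bcl2l11, were chosen after their values were seen. Foxo1 had log2 values of 9.94, 10.20 and 10.55 in the knockout-labelled arrays and 10.80, 10.54 and 10.60 in the control arrays (-0.42 ± 0.17, adjusted p = 0.382), which overlapped. Foxo3 differed by 0.16 ± 0.15 (adjusted p = 0.705). Ddit3, which encodes the ER stress factor CHOP, an inducer of BIM, differed by 0.39 ± 0.17 (adjusted p = 0.404).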

How the data were processed

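Each deposited value is the log2 expression of a probe set, made by the authors with RMA (background correction, quantile normalization across arrays, probe summary), per the submitters' processing notes, which give no version. Scanner files, detection calls and scan dates were not used. Of 45101 probe sets, 64 of the manufacturer's controls were left out. In the remaining 45037, the platform annotation gave 34945 a single symbol, 932 several and 9160 none, and only single-symbol probe sets were named. The comparison used limma 3.58.1 (R 4.3.3; lmFit, eBayes, group as the only term, two-sided), with Benjamini-Hochberg adjustment over all 45037 probe sets. The brightest probe set stood for a gene in list counts (18193 genes). Values are means ± SD, differences have limma's moderated SE, and percentiles rank the mean of the 6 arrays. The fit was also run on simulated arrays with known changes. Their noise was drawn separately for each probe set, so that run cannot cover variation shared by probe sets, such as acinar RNA. Each array is a different mouse. Array number limits the precision.

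Named are all probe sets of the listed genes, Ppard, and in each list the genes called or else the 2 with the smallest p, plus, for each listed gene, the 2 genes closest to it by correlation. Outside this rule, Mlkl, Foxo1, Foxo3 and Ddit3 were chosen after their values were seen, and Ngfr and Myc are named because an alternative called them. The genes and lists were chosen with earlier results of these data known. Alternatives covered scaling, normalization, an intensity trend, a filter on low values, a replicate block, acinar RNA, the probe set per gene and each array left out.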

Additional observations from a re-analysis of the deposited data

How the results depend on the processing

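No probe set of the 8 genes was called under any of 13 alternatives. The count whose groups do not overlap (12 of 28) was 7 after a second quantile normalization (19.3% of all probe sets), 12 to 16 with 1 array left out (26.6% to 36% of all), and 20 against control array 1 alone, where 59.7% of all probe sets do not overlap; this count under alternatives was added after seeing the data. Among probe sets above the median level the count that did not overlap was 10 of 20 (25.6% of all such probe sets). Of the other apoptosis genes, 7 of 137 were called higher with an intensity trend (1.97% of all probe sets called in either direction, in place of 0.897%). Above the median level 3 of 116 were called higher (2.64% of all probe sets in either direction). On the probe set with the largest spread 2 were, Cradd and Ngfr, with no share over all genes given. That spread, over all 6 arrays, includes any difference between groups. On its brightest probe set Ngfr overlapped and differed by 0.62 (adjusted p = 0.542). With the replicate block or the acinar covariate 0 were called. With 1 array left out 0 to 1 were called higher and 0 to 1 lower (Myc, -0.79, without control array 1). Some differences changed sign. After median centring it was Bid 1447873_x_at (0.019), and after a second quantile normalization Mcl1 1448503_at (-0.021) and Bak1 1425716_s_at (-0.027). Against control array 1 alone they were Bcl2 1440770_at (0.0068, in place of -0.29) and Bcl2l1 1426050_at (0.073). With 1 array left out in turn, the range was -0.12 to 0.24 for Bcl2 1422938_at, -0.29 to 0.11 for Bcl2 1457687_at, -0.24 to 0.033 for Bcl2l1 1426050_at, -0.017 to 0.070 for Mcl1 1448503_at, -0.0021 to 0.10 for Mcl1 1416881_at, -0.016 to 0.055 for Bak1 1425716_s_at, -0.0024 to 0.16 for Bad 1416582_a_at and -0.23 to 0.17 for Bid 1447873_x_at. The cause of these changes was not tested. Arrays of the same replicate number did not deviate together (r = -0.05, 0.14 and 0.0045 for numbers 1 to 3), and not every array correlated best with its own number, so the numbers were not taken as pairs; with replicate number as a block 246 probe sets were called in place of 404. Leaving out control arrays 2 and 3 leaves 1 control, assumed to vary like the other group.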

Other observations

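The genes whose levels ran most like each member's brightest probe set over the 6 arrays were picked as the highest of 11081 Pearson correlations each, so the values are a description and include the difference between groups. Bcl2l1 ran closest to the glycolytic enzyme gene Tpi1 (r = 0.993) and to Neb, which encodes the muscle protein nebulin (0.993), and these differed between knockout-labelled and control arrays by 0.42 and 2.16 on the log2 scale without passing. Bcl2l11 ran closest to Cactin (0.993) and to Cdca8, a subunit of the mitotic chromosomal passenger complex (0.991), which differed by -0.24 and -0.91 (adjusted p = 0.388 and 0.0724). Bid was followed by Rnft1 (0.992) and the nuclear pore gene Nup43 (0.991), and Mcl1 by the splicing regulator gene Mbnl2 (0.995) and Rbm22 (0.988). For Bcl2, with its 1 high array in each group, they were Padi2 (0.975) and the cell cycle ligase gene Anapc1 (0.953). Bad was followed by the sterol enzyme gene Sc5d (0.985) and by Tgfb1 (0.965), Bak1 by Zmynd10 (0.998) and 9430038I01Rik (0.985), and Bbc3 by Zfp74 (0.996) and Akap7 (0.984).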
